A study of Mus musculus with 18 samples.

Results

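Genes long studied in Alzheimer's disease were followed in mouse hippocampus: App, Bace1, Psen2, Ncstn, Psenen, Aph1a, Mapt, Clu and Apoe. They were chosen by name, and every probe set that the platform annotation assigns to 1 of them alone was taken. A probe set is a group of short array probes for 1 transcript region. The 9 genes have 25 probe sets, out of 18193 named genes and 45037 probe sets that are not controls. Of the 25, 21 were bright enough to be tested and 4 were not. The study compared 18 samples of total RNA from mouse hippocampus, in 3 groups of 6: aged mice labelled as impaired in spatial memory, aged mice labelled as unimpaired, and young mice labelled as unimpaired. The sources used here give no age in months, strain, sex, treatment or batch. Nothing in the labels ties the samples to separate animals, so the p-values cover only the spread among these samples, which may be technical in part.

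The amyloid precursor protein, App, is a membrane protein of neurons that is cut by a series of proteases called secretases. Bace1, the beta-secretase, makes the first cut on the amyloid route, and gamma-secretase then releases the amyloid-beta peptide from the membrane. Presenilins form the active centre of gamma-secretase, and Ncstn (nicastrin), Aph1a and Psenen are its other subunits. Tau, the product of Mapt, binds microtubules in axons and forms tangles in disease. Apoe and Clu are lipid-carrying proteins secreted largely by astrocytes in the brain, and both bind amyloid-beta.

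None of the 21 tested probe sets of these genes differed between any groups at an adjusted p under 0.05. The test was limma's moderated test over all 27022 tested probe sets with Benjamini-Hochberg adjustment, and the count was 0 in each of 4 comparisons: aged impaired against aged unimpaired, aged unimpaired against young, aged impaired against young, and both aged groups against young. Over all probe sets the same rule called 0.0111% in the first comparison, 0.137% in the second, 1.63% in the third and 0.947% in the last. At an unadjusted p under 0.05 there were 1, 4, 3 and 3 of the 21, or 4.76%, 19%, 14.3% and 14.3%, beside 8.09%, 8.19%, 15.8% and 13.4% of all probe sets. No member probe set had groups that did not overlap in any comparison, where 0.525%, 0.766%, 2.01% and 0.303% of all probe sets did. The median difference of the 21 was between 0.0074 and 0.03 on the log2 scale in the 4 comparisons, and that of all tested probe sets lay between -0.01 and 0.0058.

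The precision of these values bounds what could have been missed. Levels are log2(signal + 16), so a difference of 1 is a doubling of a bright signal, and each value after ± is the fit's standard error. For a difference between 2 groups its median was 0.10 for the members and 0.124 over all tested probe sets. The 95% interval lay within 1.5-fold in both directions for 20 of 21 probe sets between the aged groups, 21 for aged unimpaired against young, 20 for aged impaired against young and 21 for both aged groups against young. It lay within 1.25-fold for 13, 12, 13 and 14 of them. On the brightest probe set of each gene, all 9 intervals lay within 1.5-fold in all 4 comparisons.

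**Figure D1:**
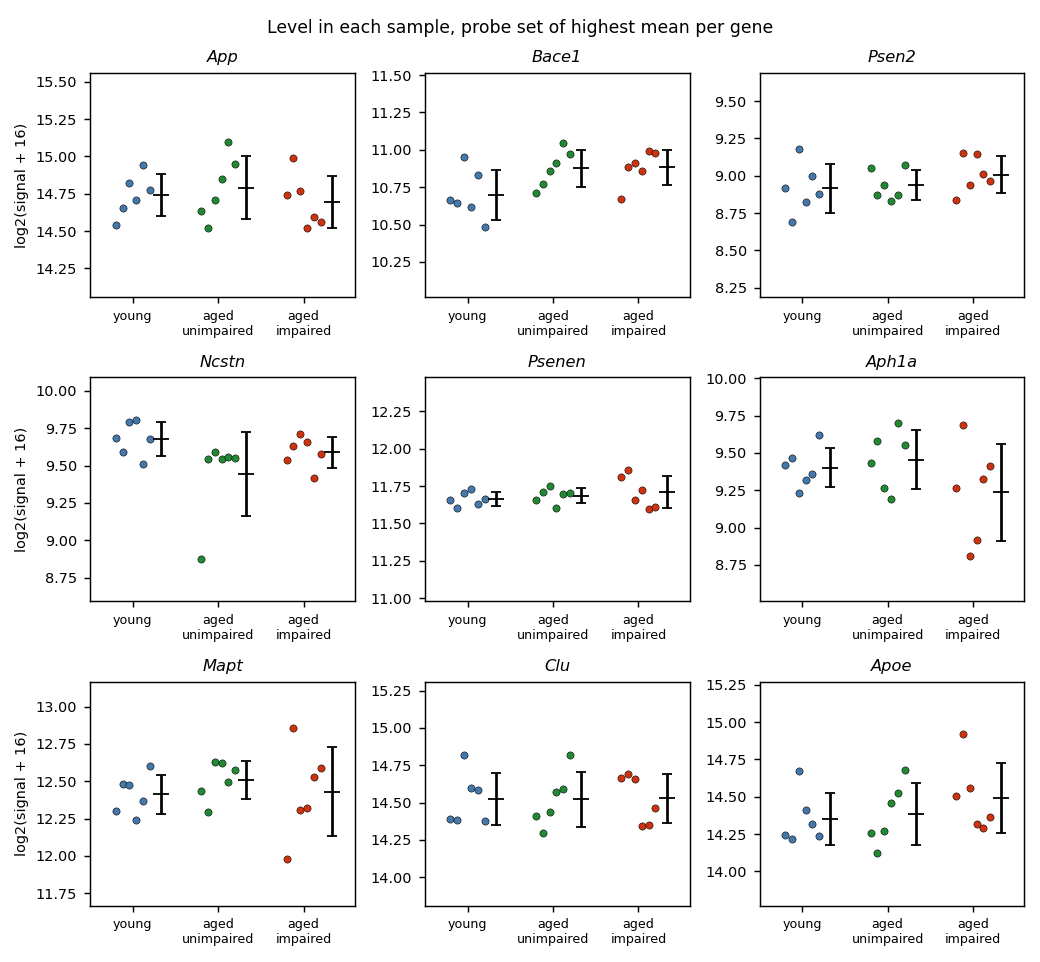
Level of the brightest probe set of each of the 9 genes in each of the 18 samples, as log2(signal + 16), by group, with the group mean and SD at the right of the points. Every panel spans the same height of 1.5 log2 units, and in all 9 the 3 groups overlap.

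App, the substrate, showed no difference beyond its error. On the brightest probe set, 1427442_a_at, the 6 aged impaired samples had a lowest, median and highest level of 14.52, 14.67 and 14.99, the 6 aged unimpaired 14.52, 14.78 and 15.10, and the 6 young 14.54, 14.74 and 14.94. The groups overlapped over most of their range. Aged impaired minus aged unimpaired was -0.10 ± 0.10 (95% interval 0.804- to 1.09-fold, limma adjusted p = 0.843), and both aged groups minus young was 0.0028 ± 0.09 (0.879- to 1.14-fold, adjusted p = 0.995). The second probe set, 1420621_a_at, varied less, from 13.46 to 13.75 over all 18 samples, and its differences lay between -0.05 and 0.0062 in the 4 comparisons.

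Bace1, the beta-secretase, has 4 tested probe sets, and they did not move together. On the brightest, 1455826_a_at, the aged impaired samples ran from 10.67 through a median of 10.90 to 10.99, the aged unimpaired from 10.71 through 10.88 to 11.04, and the young from 10.48 through 10.65 to 10.95. The aged samples lay mostly higher, 11 of 12 above the young mean, with overlap. Both aged groups minus young was 0.18 ± 0.07 (1.02- to 1.26-fold), which did not pass (limma adjusted p = 0.284).

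A dimmer Bace1 probe set, 1450384_at, lay the other way. Aged impaired samples ran from 8.74 through 9.002 to 9.32, aged unimpaired from 9.04 through 9.11 to 9.27, and young from 9.001 through 9.38 to 9.59. All 12 aged samples lay below the young mean, and the groups overlapped. Young sample 3, at 9.001, was the lowest of its group. The next lowest, young sample 1 at 9.26, also lay below aged impaired sample 2 (9.32) and aged unimpaired sample 1 (9.27). Aged impaired minus young was -0.35 ± 0.10, the lowest adjusted p of any member (0.101 by limma), and aged unimpaired minus young was -0.23 ± 0.10 (adjusted p = 0.572). Without young sample 3 the first difference was -0.42 and passed (adjusted p = 0.0411), the only such case over all alternatives and member probe sets. The ratio of 3' to 5' signal of control transcripts is a common measure of RNA quality. Among the young it was highest in sample 3, at 0.425 on the log2 scale beside 0.21 to 0.33. Aged unimpaired sample 6 also had 0.425, and the part of the ratio in the low value of young sample 3 was not tested. Over the 18 samples the ratio correlated at -0.13 with 1450384_at and at 0.50 with the brightest Bace1 probe set, 1455826_a_at. With that ratio as a covariate, aged impaired minus young on 1450384_at was -0.35 (limma adjusted p = 0.102).

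Neither remaining Bace1 probe set passed in any comparison. The difference of both aged groups minus young was 0.04 ± 0.07 on 1421824_at (limma adjusted p = 0.848) and -0.13 ± 0.10 on 1421825_at (adjusted p = 0.630). Markers of other cell types moved with the opposed pair. Over the 18 samples the mean of 14 microglia markers correlated at 0.62 with 1455826_a_at and -0.61 with 1450384_at, and the mean of 11 oligodendrocyte markers at 0.50 and -0.62. The points share arrays and groups, and the part of these cells in the Bace1 differences was not tested. The labels and annotation do not say which transcript forms the probe sets read.

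**Figure D2:**
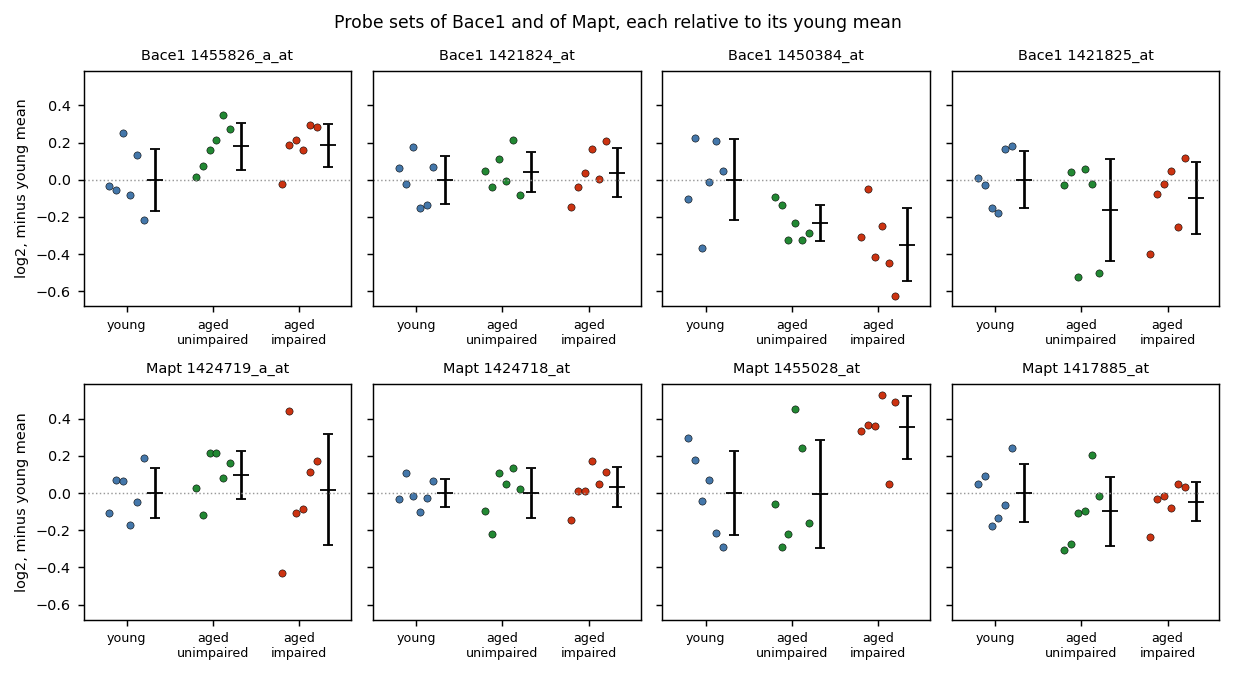
The 4 tested probe sets of Bace1 (top) and of Mapt (bottom) in each sample, as log2(signal + 16) minus the mean of the 6 young samples of that probe set, with group mean and SD. Bace1 1450384_at has all 12 aged samples under 0 and 1455826_a_at has 11 of 12 above it, while Mapt 1455028_at is above 0 in all 6 aged impaired samples.

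No subunit of gamma-secretase passed on any probe set, and Ncstn had the widest spread over the 18 samples. Psen2, a presenilin, ran on 1425869_a_at from 8.83 through 8.99 to 9.15 in aged impaired, from 8.83 through 8.90 to 9.07 in aged unimpaired and from 8.69 through 8.90 to 9.18 in young samples. The range of the young samples enclosed those of both aged groups. Aged impaired minus young was 0.09 ± 0.08 (0.945- to 1.20-fold, limma adjusted p = 0.634).

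Psenen, which completes the complex, varied least of all members, by 0.27 on the log2 scale from the lowest to the highest of 18 samples. Its probe set 1415679_at ran from 11.59 through 11.69 to 11.86 in aged impaired, from 11.60 through 11.70 to 11.75 in aged unimpaired and from 11.60 through 11.66 to 11.73 in young samples. The groups lay on top of each other. Both aged groups minus young was 0.03 ± 0.05 (0.95- to 1.10-fold, limma adjusted p = 0.833).

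Ncstn, the subunit that receives the substrate, owed its spread to 1 sample. On 1418570_at the aged impaired samples ran from 9.42 through 9.60 to 9.71 and the young from 9.51 through 9.68 to 9.81. In the aged unimpaired group 5 samples lay between 9.55 and 9.59, and sample 1 lay at 8.88. Aged unimpaired minus young was -0.23 ± 0.11 (limma adjusted p = 0.587) with that sample and -0.12 (adjusted p = 0.694) without it.

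Aph1a, a scaffold of the complex, has 3 tested probe sets of which the brightest, 1424980_s_at, ran from 8.81 through 9.30 to 9.68 in aged impaired, from 9.19 through 9.49 to 9.70 in aged unimpaired and from 9.23 through 9.39 to 9.62 in young samples. The aged impaired group spread most, with an SD of 0.32 beside 0.20 and 0.13. Aged impaired minus aged unimpaired was -0.22 ± 0.13 (limma adjusted p = 0.708) there, 0.16 ± 0.13 on 1451554_a_at and 0.08 ± 0.14 on 1424979_at. The sign thus depended on the probe set.

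Mapt, which encodes tau, has 4 tested probe sets, and 3 of them showed no difference over 0.10 in size in any comparison. The brightest, 1424719_a_at, ran from 11.98 through 12.43 to 12.85 in aged impaired, from 12.29 through 12.53 to 12.63 in aged unimpaired and from 12.24 through 12.42 to 12.60 in young samples. The aged impaired samples enclosed both other groups. Both aged groups minus young was 0.06 ± 0.10 (0.899- to 1.20-fold, limma adjusted p = 0.852).

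The fourth Mapt probe set, 1455028_at, held the largest difference between the aged groups among the 21 tested probe sets. Aged impaired samples ran from 11.05 through 11.37 to 11.53, aged unimpaired from 10.72 through 10.89 to 11.46 and young from 10.72 through 11.02 to 11.30. All 6 aged impaired samples lay above the mean of the aged unimpaired samples and above that of the young, while the ranges overlapped. Aged impaired minus aged unimpaired was 0.36 ± 0.13 (1.06- to 1.55-fold), with an unadjusted p of 0.0139 and an adjusted p of 0.499 by limma. Aged impaired minus young was 0.35 ± 0.13 (adjusted p = 0.192) and aged unimpaired minus young was -0.0051 ± 0.13. The 3 other Mapt probe sets gave -0.08, 0.04 and 0.05 between the aged groups. Over the 18 samples 1455028_at correlated at -0.54 with the mean of 14 neuron markers and at 0.49 with that of 11 oligodendrocyte markers. Between the aged groups, 13 of the 14 neuron markers were lower and 9 of the 11 oligodendrocyte markers higher in aged impaired samples, with 0 called. Their part in the Mapt difference was not tested.

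**Figure D3:**
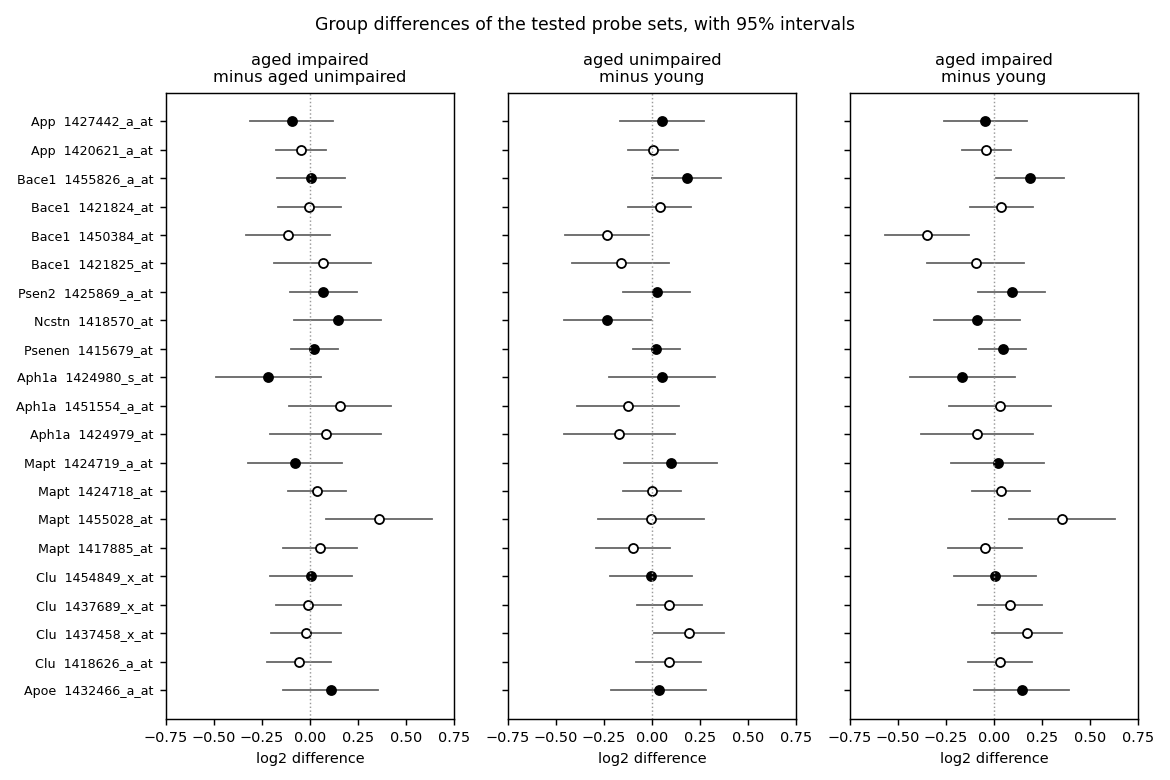
Difference of each of the 21 tested probe sets between 2 groups, as log2, with its 95% interval from limma, in 3 comparisons. Filled points mark the brightest probe set of each gene. Most intervals cross 0, and the 3 points farthest from it are Mapt 1455028_at at 0.36 for aged impaired minus aged unimpaired and 0.35 minus young, and Bace1 1450384_at at -0.35 for aged impaired minus young.

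Of the lipid carriers, Clu (clusterin, also called apolipoprotein J) is read by 4 bright probe sets, 3 of them of the _x_at kind, whose probes may also match other transcripts. On 1454849_x_at the aged impaired samples ran from 14.34 through 14.56 to 14.69, the aged unimpaired from 14.30 through 14.50 to 14.82 and the young from 14.38 through 14.49 to 14.82. The groups overlapped nearly whole, and aged impaired minus aged unimpaired was 0.0074 ± 0.10 (0.867- to 1.17-fold, limma adjusted p = 0.992). On 1437458_x_at the aged samples lay mostly higher, from 13.84 to 14.40, beside 13.81 to 14.08 in the young. There 11 of 12 aged samples were above the young mean, and both aged groups minus young was 0.18 ± 0.08 (adjusted p = 0.304). Over the 18 samples 1437458_x_at correlated at 0.78 with the astrocyte-marker mean, 0.69 with the microglia-marker mean and 0.60 with the oligodendrocyte-marker mean. It correlated at -0.49 with the mean of hippocampal subfield markers and at 0.66 with the ratio of 3' to 5' control signal. The part of each was not tested. The other Clu probe sets gave 0.09 ± 0.07 and 0.06 ± 0.07 for the same comparison.

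Apoe, the main lipid carrier of the brain, ran on 1432466_a_at from 14.29 through 14.44 to 14.92 in aged impaired, from 14.12 through 14.36 to 14.68 in aged unimpaired and from 14.22 through 14.28 to 14.67 in young samples. Its highest value was in aged impaired sample 2 and the groups overlapped. Aged impaired minus young was 0.14 ± 0.12 (0.931- to 1.31-fold, limma adjusted p = 0.595) and aged impaired minus aged unimpaired was 0.11 ± 0.12 (0.908- to 1.28-fold, adjusted p = 0.845). In bulk tissue a change in the number of cells of a type and a change in RNA per cell cannot be told apart.

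The 4 untested probe sets lay near the floor of the scale, with group means between 4.23 and 5.32: App 1438374_x_at and 1438373_at, Psen2 1431542_at and Ncstn 1444532_at. Fitted without the filter, none of them passed in any comparison (lowest limma adjusted p = 0.471).

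Probe sets of 1 gene often disagreed. In the 5 genes with more than 1 tested probe set, the signs of the difference were mixed in 4 genes between the aged groups, 4 for aged unimpaired against young, 3 for aged impaired against young and 3 for both aged groups against young. Over the 18 samples the correlation of probe sets of the same gene was 0.67 to 0.88 for Clu and 0.55 for App. It ran from -0.06 to 0.68 for Mapt, from -0.19 to 0.43 for Aph1a and from -0.67 to 0.39 for Bace1, each point being a pair of probe sets that share the same arrays and scaling.

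The log2 ratio of 2 probe sets within an array does not depend on the scaling of that array, and was compared between groups after the levels had been seen. Bace1 and Clu each have 6 pairs. The pair given for each is that of lowest limma p for both aged groups against young, so its sample counts are only descriptive. For Bace1, 1455826_a_at minus 1450384_at had a mean of 1.80 in the 12 aged and 1.33 in the 6 young samples. All 12 aged samples lay above the young mean, and the ranges of 1.44 to 2.24 and 1.05 to 1.95 overlapped. For Clu, 1454849_x_at minus 1437458_x_at had a mean of 0.45 in aged and 0.63 in young samples, with 12 of 12 aged samples below the young mean. The Clu ranges were 0.39 to 0.57 in aged and 0.49 to 0.74 in young samples. Groups that did not overlap were found in 1 of 22 member pairs for aged unimpaired against young, which was this Clu pair, and in 0 for the other comparisons. Over all pairs the shares were 0.288% between the aged groups, 0.35% for aged unimpaired against young, 1.01% for aged impaired against young and 0.0677% for both aged groups against young.

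Neither ratio passed limma fitted to all 17719 pairs of tested probe sets of the 6281 named genes that have more than 1. Both aged groups minus young was 0.47 ± 0.14 for Bace1 (adjusted p = 0.223) and -0.18 ± 0.06 for Clu (adjusted p = 0.312). Of the 22 member pairs, 0 passed in any of the 4 comparisons, where 0.00564%, 0%, 0.0734% and 0.0451% of all pairs did. At an unadjusted p under 0.05 there were 2, 3, 5 and 4 member pairs of 22, beside 6.33%, 7.39%, 11.7% and 10.7% of all pairs.

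**Figure D4:**
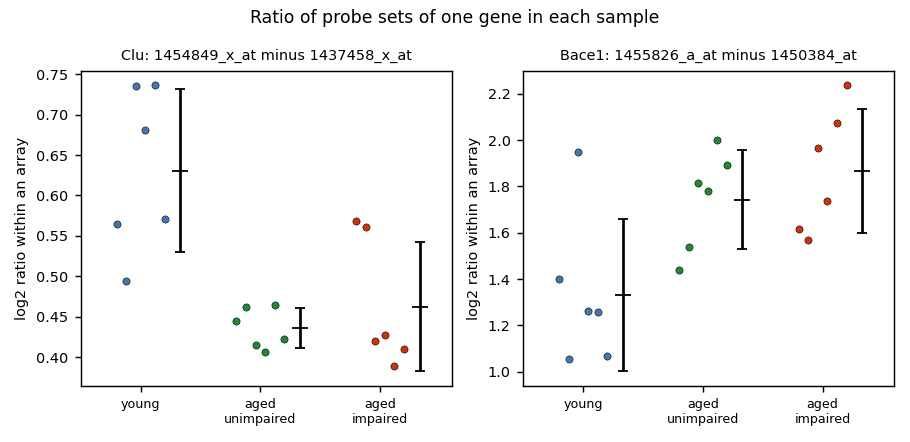
Log2 ratio of 2 probe sets of Clu (left) and of Bace1 (right) within each array, by group, with group mean and SD. The pair drawn for each gene was picked as that of lowest limma p for both aged groups against young. The Clu ratio is lower in aged samples (mean 0.45) than in young (0.63) and the Bace1 ratio is higher (1.80 beside 1.33), and the axes do not start at 0.

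The members varied together in part. Over the 18 samples, on the brightest probe set of each gene, Clu and Apoe correlated at 0.87, App and Clu at 0.72 and App and Apoe at 0.69. After group means were taken out the values were 0.91, 0.75 and 0.80. Pairs that hold a secretase gene ran from -0.19 (Ncstn and Aph1a) to 0.53 (Psenen and Apoe), with Bace1 and Apoe at 0.47 and Bace1 and Psen2 at 0.46. These are descriptions, since all points share arrays, scaling and RNA quality.

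The ratio of 3' to 5' control signal correlated over the 18 samples at 0.72 with App 1427442_a_at, 0.73 with Clu 1454849_x_at and 0.64 with Apoe, and at 0.11 with the second App probe set, 1420621_a_at. Its part in their covariation was not tested. The mean of 14 astrocyte markers correlated at 0.73 with Clu 1454849_x_at and 0.77 with Apoe. The marker means of oligodendrocytes, microglia and hippocampal subfields correlated at 0.47, 0.33 and -0.60 with that Clu probe set. With Apoe they correlated at 0.59, 0.56 and -0.78, and the part of these cells was not tested. The astrocyte mean was 12.15 in aged impaired, 12.13 in aged unimpaired and 12.07 in young samples. Of the astrocyte markers only Gfap passed, in aged impaired against young (0.77 ± 0.14, limma adjusted p = 0.00992) and in both aged groups against young.

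The genes whose level followed each member most closely are given with their Pearson correlation over the 18 samples. App was closest to Ppp2r1a, Aldoa and Actg1 (0.94, 0.93 and 0.91), Clu to Rpl41, Rps4x and Tpt1 (0.92, 0.90 and 0.89), and Apoe to Eci1, Anapc13 and Rpl13a (0.92, 0.90 and 0.89). Psenen was closest to Ndufb9, Tceal8 and Park7 (0.91, 0.89 and 0.87), and Mapt to Ina, Cbx6 and Clstn1 (0.84, 0.80 and 0.80). Bace1 was closest to Cntn1, Npc1 and Son (0.83, 0.81 and 0.80), and Psen2 to Pygm, Cdt1 and Esyt3 (0.83, 0.79 and 0.78). Ncstn was closest to Car13, Ndufb1 and 2310001K24Rik (0.80, 0.79 and 0.73), and Aph1a to Chfr, Casp14 and Ankub1 (0.80, 0.75 and 0.75). App had 42 genes with a correlation above 0.8, Clu 52 and Apoe 56, while no other member had more than 7.

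The other genes of these pathways were taken from 6 lists with 119 entries, of which 105 had a tested probe set. By limma over all probe sets, 0 of the 105 passed between the aged groups, 0 for aged unimpaired against young, 3 for aged impaired against young and 2 for both aged groups against young. That is 0%, 0%, 2.86% and 1.9%, beside 0.00762%, 0.145%, 1.9% and 1.19% of all 13121 named genes. The 3 that passed rose and all are in the list of lipoprotein receptors and lipid transport: Trem2, Apod and Vldlr.

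Trem2, a lipid receptor of microglia that binds Apoe and Clu, ran from 8.33 through 8.59 to 9.22 in aged impaired, from 7.71 through 8.52 to 9.10 in aged unimpaired and from 6.84 through 7.51 to 7.78 in young samples. The aged impaired samples lay wholly above the young and the aged unimpaired nearly so. It rose by 1.26 ± 0.21 in aged impaired against young (limma adjusted p = 0.00548) and by 1.13 ± 0.19 in both aged groups (adjusted p = 0.00514). Aged unimpaired minus young was 1.00 ± 0.21 (adjusted p = 0.0790), and the aged groups differed by 0.26 ± 0.21 (adjusted p = 0.788). A second, dim Trem2 probe set, 1421226_at, did not pass the filter. Fitted without it, this probe set lay the other way and was not called, at -0.17 ± 0.41 in aged impaired minus young (adjusted p = 0.914) and -0.38 ± 0.36 in both aged groups minus young (adjusted p = 0.766). Markers of microglia rose as the brighter Trem2 probe set, 1421792_s_at, did: 10 of 14 in aged impaired against young, 3 in aged unimpaired and 9 in both aged groups. Their mean ran from 10.10 to 10.58 in aged impaired, from 10.002 to 10.51 in aged unimpaired and from 9.49 to 9.75 in young samples, and their part in the result was not tested.

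Apod, an apolipoprotein of glia, ran from 13.06 through 13.54 to 14.22 in aged impaired, from 12.32 through 13.14 to 13.88 in aged unimpaired and from 12.36 through 12.55 to 12.84 in young samples. The aged impaired samples lay wholly above the young. It rose by 0.99 ± 0.21 in aged impaired against young (limma adjusted p = 0.0249), with 1.19 ± 0.24 on its second probe set (adjusted p = 0.0156). The first call was lost without aged impaired sample 2 or 6, or young sample 1, 2 or 6 (adjusted p up to 0.0589), with no filter (0.0572) and with the sample number as a block (0.0772). Apod rose by 0.80 ± 0.18 in both aged groups (adjusted p = 0.0472), and 19 of 28 alternatives ended that call. Of 11 oligodendrocyte markers, Mog and Mag rose in aged impaired against young, and their part was not tested.

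Vldlr, a receptor of Apoe-bearing particles, ran on the probe set 1434465_x_at from 10.99 through 11.12 to 11.18 in aged impaired, from 10.85 through 10.92 to 11.26 in aged unimpaired and from 10.53 through 10.70 to 10.95 in young samples. It rose by 0.37 ± 0.09 in aged impaired against young (limma adjusted p = 0.0365). The other 5 probe sets of Vldlr gave -0.07 to 0.25 with none called, and 12 of 23 alternatives ended the call (adjusted p up to 0.0941). Among those were the fits without any 1 of aged impaired samples 2 to 6 or young samples 2, 4, 5 and 6.

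**Figure D5:**
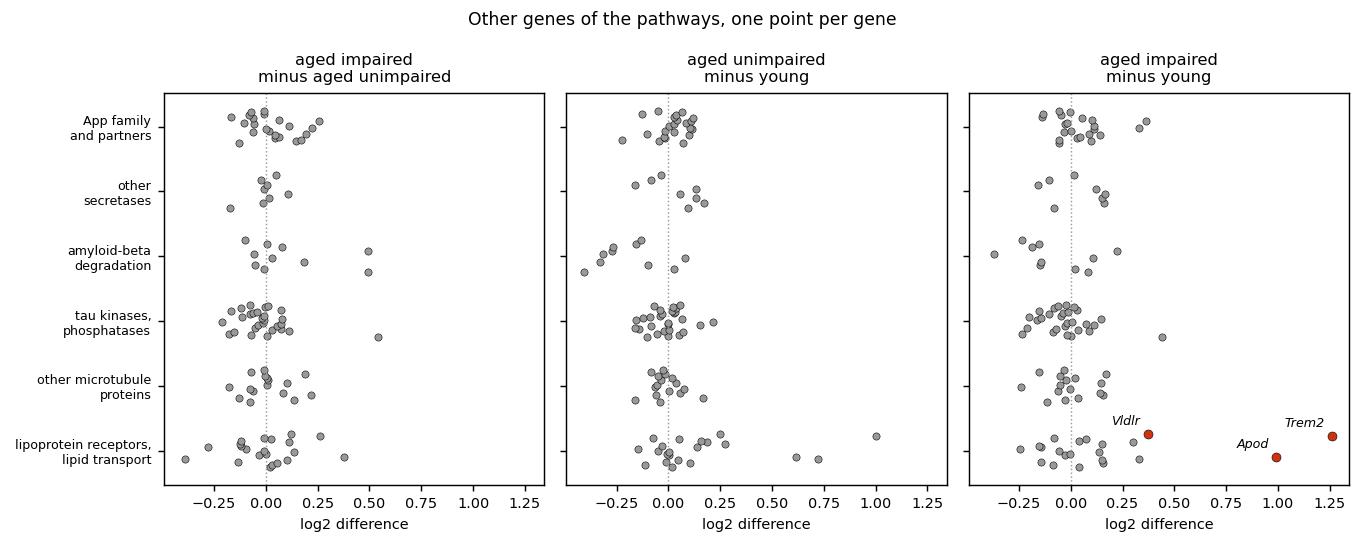
Difference of each tested gene of 6 pathway lists between 2 groups, as log2, in 3 comparisons, with 1 point per gene on its brightest probe set. Red points passed at an adjusted p under 0.05; these are Trem2 (1.26), Apod (0.99) and Vldlr (0.37), all in aged impaired minus young.

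In the other 5 lists no gene passed in any comparison. Of the App family and its partners, 22 were tested and the lowest adjusted p was 0.0685, for Kif5b, a motor for axonal cargo, at 0.36 ± 0.10 in aged impaired minus young. Of 8 other secretases, Adam10, the main alpha-secretase, was 0.17 ± 0.06 lower in aged impaired than in aged unimpaired samples (adjusted p = 0.472). Of 10 enzymes that degrade amyloid-beta, 8 had a lower mean in aged unimpaired than in young samples and 6 in aged impaired than in young, where 52.3% and 50.8% of all 13121 named genes did. Mme (neprilysin) was at -0.34 ± 0.14 and Thop1 at -0.18 ± 0.07 in both aged groups minus young (limma adjusted p = 0.291 and 0.290). Between the aged groups 6 of the 10 were higher in aged impaired samples and 4 lower. The largest difference was 0.495, for Mmp2, and none passed (lowest limma adjusted p = 0.522). Of 28 kinases and phosphatases of tau, Mapk9 was 0.21 ± 0.08 lower in aged impaired than in aged unimpaired samples (adjusted p = 0.518) and Camk2a 0.54 ± 0.22 higher (adjusted p = 0.548). Of 16 other microtubule proteins, Stmn4 had the lowest p between the aged groups, at 0.19 ± 0.11 (adjusted p = 0.691).

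The arrays and tissue were checked once. Deposited signals had medians of 23.5 to 30.5 per array, and each array correlated with its nearest other array at 0.976 to 0.983, with none identical. Neuron markers had group means of 13.03, 13.14 and 13.13 (aged impaired, aged unimpaired, young), and markers of hippocampal subfields 10.28, 10.31 and 10.32. The mean of 16 markers of the choroid plexus, a neighbouring tissue, ranged from 6.87 to 10.59 between samples. Its group means were 9.40, 8.58 and 9.39 in the same order. All 16 markers were higher in aged impaired than in aged unimpaired samples, and 15 were lower in aged unimpaired than in young. None was called in any comparison, and a fit with their mean as a covariate called no member.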

How the data were processed

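The table holds the authors' deposited probe set intensity, linear and not on a log2 scale; the submitters' processing notes name MAS5 without a version. Per the labels' protocols, RNA carried a biotin label. Here every array was brought to the same 2%-trimmed mean, 500, then 16 was added and log2 taken. Control probe sets and the lowest 40% of the others by mean were left out. Gene symbols are those of the platform annotation (34945 probe sets with 1 symbol), updated through RefSeq. The tests used limma 3.58.1 (R 4.3.3) with a mean per group over all 18 samples, were 2-sided, and had p-values adjusted over all 27022 probe sets.

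The members, lists and tests were chosen with earlier results of these data known. All probe sets of the 9 genes are described, with the brightest as the gene's own. The genes named from the pathway lists are those called and up to 4 of lowest p, and for each member the 3 genes of highest correlation. Ratios of probe sets were first compared by exact permutation and then by limma over all pairs, which is the test reported. The alternatives were 2 other scalings, other offsets (1 and 64), other filters (none and 60%), the sample number as a block, covariates for RNA quality and choroid plexus, trended and robust moderation, fits to the compared groups alone, and leaving out each sample. Precision is limited by the number of arrays. Positions were not used, as the sources name no build.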

Additional observations from a re-analysis of the deposited data

Results flagged for a closer look

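Among 75 groups of 6 values (25 probe sets in 3 groups), 5 held a sample far from the other 5, where chance gives about 3.75. Ncstn 1418570_at was at 8.88 in aged unimpaired sample 1, beside 9.55 to 9.59 in the others. Young sample 3 was high on 2 probe sets of Clu: 14.37 on 1437689_x_at, beside 14.11 to 14.16, and 13.90 on 1418626_a_at, beside 13.53 to 13.67. The other 2 were on probe sets too dim to test. App 1438373_at was at 4.81 in aged unimpaired sample 6, beside 4.09 to 4.14, and Psen2 1431542_at was at 6.24 in aged impaired sample 5, beside 4.50 to 5.10.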

How the results depend on the processing

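The count of member probe sets called was 0 in all 4 comparisons under all 11 alternatives that keep every sample, where each could be run. Leaving out 1 sample gave 0 to 1 for aged impaired against young (the 1 being Bace1 without young sample 3) and 0 otherwise. Over 2037 alternative values of the 84 member differences, 112 had another sign, in 28 of the differences, none of them called. The Clu ratio ranged from -0.21 to -0.15 over 23 alternatives (limma adjusted p 0.246 to 0.498) and the Bace1 ratio from 0.42 to 0.60 (0.122 to 0.377). Exact permutation p-values adjusted over the 88 member ratio tests alone would pass 1, the Clu ratio, which the fit over all pairs does not; that narrower adjustment is not used because the members were chosen with results known. Over all probe sets, alternatives that keep every sample moved the counts called from 3 to between 0 and 9 for the aged groups, from 37 to between 13 and 62, from 440 to between 193 and 588, and from 256 to between 131 and 322. Leaving out 1 sample gave 2 to 4, 16 to 33, 228 to 418 and 116 to 274, each of the last 3 at its lowest without young sample 6. With the replicate number as a block, which in this balanced design cannot move a group difference, 0 members were called, the lowest member adjusted p was 0.108 (aged impaired against young), and the adjusted p was 0.245 for the Bace1 ratio and 0.453 for the Clu ratio. The block lowered the counts over all probe sets to 0, 17, 240 and 141. Same-numbered samples did not deviate together (r of -0.25 to 0.10 over 18 pairs), and 0 of 18 samples correlated best with their own number. A fit of only the groups compared does not apply to both aged groups against young. With 6 samples a group, differences of members under about 1.25-fold were often within the error.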
